A study of Bos taurus with 24 samples.

Results

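miR-451, miR-144 and miR-486, miRNAs best known from red blood cells, were followed through 22 small RNA libraries of bovine mammary gland. They were taken as the rows named exactly bta-miR-451, bta-miR-144 and bta-miR-486 in the deposited tables, and they were 3 of the 796 miRNAs listed. No other row carried one of these numbers, and none of the 3 had the same counts as another miRNA. The libraries came from multiparous cows in midlactation, 5 of the Holstein breed (HOLS) and 6 of the Montbéliarde breed (MONT). Each cow was biopsied in a rear gland of the udder while fed freely (CONT, day 0) and again, in the other rear gland, at the end of 6 days of feed restriction (REST, day 6). The labels set the restriction at 60% of the net energy of lactation, and the study's methods give a lower share. The tissue was rinsed in saline before freezing. No cow stayed unrestricted, so the restriction, the time between the biopsies and the side cannot be told apart. The labels list 24 libraries, and the 2 of a further HOLS cow were not analysed here.

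miR-144 and miR-451 are neighbours in the genome and are cut from a single transcript of red cell precursors that the factor GATA1 switches on. miR-451 is unusual in that Argonaute 2, not Dicer, makes its mature form. miR-486 lies within ANK1, the gene of the ankyrin of the red cell membrane skeleton, and muscle makes it as well as red cells. Mature red cells have no nucleus but keep all of these miRNAs, which is why the miRNAs are read as a sign of red cells in a sample. In the RefSeq annotation of the cattle assembly ARS-UCD2.0, MIR451 and MIR144 stood side by side between ERAL1 and FLOT2, and MIR486 lay within ANK1. In a biopsy measured as a whole, fewer red cells and less of the miRNA in each cell cannot be told apart.

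The libraries held between 6087865 and 18913916 miRNA counts. By the study's own read summary, the MONT libraries kept a smaller share of clean reads than the HOLS ones, the smallest in MONT CONT. Breed and this difference in library quality cannot be told apart. Levels are given as counts per 1000000 miRNA counts of the library (CPM). The tissue showed its epithelial miRNAs in every library, with 6 of 6 listed miRNAs (the miR-200 family, miR-141 and miR-205) summing to between 12719 and 48681 CPM, whereas miR-122, the miRNA of the liver, was at 0 in 18 of the 22 libraries. miR-486 had 20387 to 61896 counts per library, miR-451 had 728 to 6767 and miR-144 had 29 to 190. The widest 95% Wilson interval of a single library reached 1.37% of the value on either side for miR-486, 7.27% for miR-451 and 37.0% for miR-144. These intervals cover the counting error of reads only. The reads carried no molecular identifiers, so copies made by amplification count as separate reads.

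The 3 miRNAs sat at different heights in the gland. miR-486 averaged 3197 CPM over the 22 libraries and was the 32nd of all miRNAs by mean level. miR-451 averaged 187 CPM, in place 94, and miR-144 averaged 7.74 CPM, in place 226. The order miR-486 over miR-451 over miR-144 held in each of the 22 libraries. Library preparation favours some miRNAs over others, so this order compares reads and not molecules. miR-451 varied most among the libraries, with 8.33-fold between its lowest and highest level, against 6.55-fold for miR-144 and 3.40-fold for miR-486.

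In HOLS cows, miR-451 stood at 218.7, 249.7, 163.8, 160.6 and 210.2 CPM in CONT and at 127.6, 210.5, 208.0, 132.1 and 139.5 CPM in REST, for cows 1155, 1165, 2182, 8200 and 9195. Its level was lower in REST in 4 of these 5 cows and higher in cow 2182, and the ranges of the 2 periods overlapped. The group means were 201 ± 38.0 and 164 ± 42.0 CPM (SD, n = 5). MONT cows had a lowest, median and highest level of 99.2, 126 and 642 CPM in CONT and of 77.1, 95.5 and 169 CPM in REST, with means of 268 ± 245 and 115 ± 41.8 CPM (SD, n = 6). The large SD in MONT CONT came from 2 libraries, cow 2614 at 642.5 and cow 1613 at 516.9 CPM. The other 4 libraries of that group lay between 99.2 and 132.4 CPM. At REST the levels of these 2 cows were 100.1 and 77.1 CPM, or 0.156 and 0.149 of their CONT level, and cow 1613 then had the lowest level of the 22 libraries.

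miR-144, the partner of miR-451 in its transcript, had 8.34, 8.71, 7.27, 9.12 and 7.08 CPM in CONT and 5.40, 9.002, 8.42, 7.60 and 3.91 CPM in REST, in the same order of HOLS cows. It was lower in REST in 3 of the 5 cows, and the periods overlapped. In MONT its lowest, median and highest levels were 3.64, 5.61 and 23.8 CPM in CONT and 4.18, 5.32 and 9.01 CPM in REST. Cows 1613 and 2614 were again the highest of MONT CONT, at 23.8 and 18.04 CPM, with 0.224 and 0.232 of that level left in REST. In the other 4 MONT cows miR-144 was higher in REST than in CONT, from 3.64 to 9.01 CPM in cow 1640 and by less in cows 1652, 5663 and 9615.

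miR-486, the miRNA shared with muscle, stood at 2439, 2875, 2869, 3270 and 3682 CPM in CONT and at 3451, 3491, 4009, 3208 and 3665 CPM in REST in the HOLS cows, listed as before. It was higher in REST in 3 of 5 cows and nearly level in cows 8200 and 9195, and the periods overlapped. MONT cows ranged from 2317 over a median of 3405 to 4722 CPM in CONT and from 1388 over 3083 to 4068 CPM in REST. Cow 1613 was the highest of MONT CONT, and of the 22 libraries, at 4722 CPM, but cow 5663 came next at 4242 CPM and cow 2614 after it at 3972 CPM. The 2 libraries that stood apart in miR-451 and miR-144 were therefore not set apart in miR-486. The periods overlapped in MONT for each of the 3 miRNAs. In cows 1613 and 2614 the REST levels of miR-486 were 0.579 and 0.440 of the CONT levels.

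**Figure D1:**
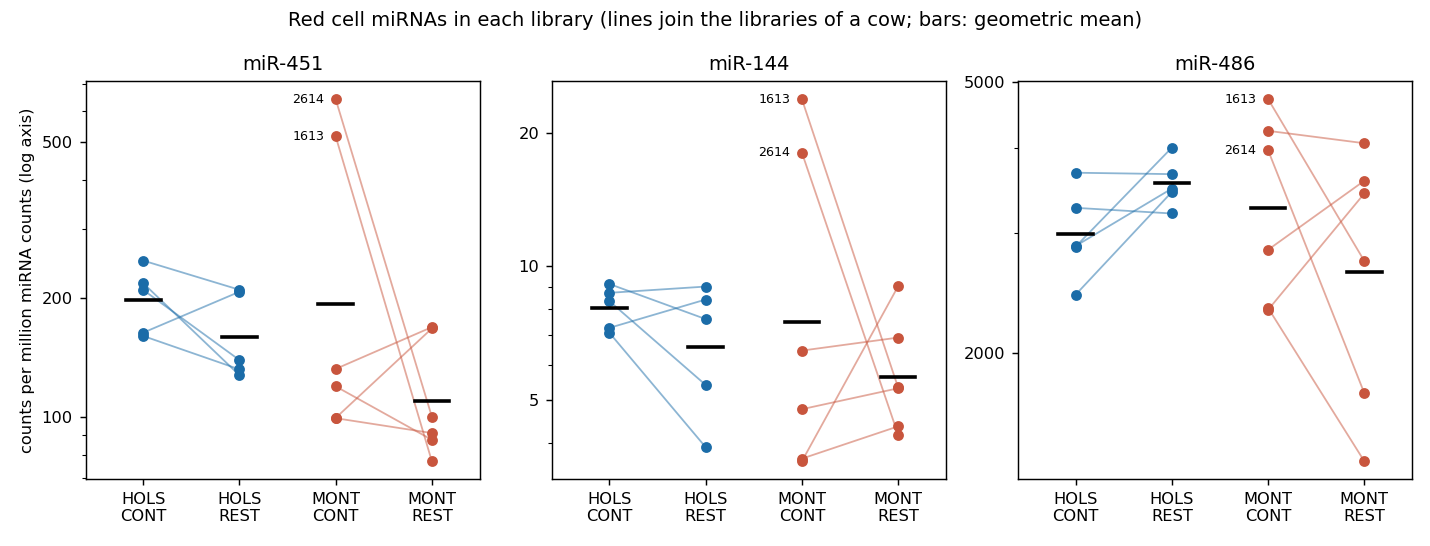
Level of miR-451, miR-144 and miR-486 in each library (CPM, log axis, a separate range for each miRNA), by breed and period. Points are libraries, lines join the libraries of a cow, and bars are geometric means of 5 HOLS or 6 MONT cows. Cows 1613 and 2614 lie far above the other MONT CONT libraries for miR-451 (516.9 and 642.5 CPM) and miR-144 (23.8 and 18.04 CPM). For miR-486 cow 1613 is the highest of the 22 libraries (4722 CPM) but next to cow 5663 (4242 CPM).

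The 2 miRNAs of the shared transcript kept closer to each other than to miR-486 over the 22 libraries, but not in each group. The ratio of miR-451 to miR-144 lay between 14.5 and 36.4 over the 22 libraries, with a median of 23.8 and an SD of 0.38 on the log2 scale. The ratio of miR-451 to miR-486 ran from 0.0215 in cow 5663 at REST to 0.162 in cow 2614 at CONT, with an SD of 0.66 on the log2 scale. For miR-144 over miR-486 that SD was 0.60, with ratios between 0.00107 and 0.00504. Within HOLS REST the SD was lower for miR-451 over miR-486 (0.31) than for miR-451 over miR-144 (0.37), and in HOLS CONT the SD was 0.31 both for miR-451 over miR-144 and for miR-144 over miR-486. Set against miR-23a, the miRNA to which miR-451 is referred when red cell RNA is looked for in plasma, miR-451 stood on the log2 scale at -0.05 in cow 2614 and -0.08 in cow 1613 at CONT. The other MONT CONT libraries lay between -2.66 and -2.20, and the 10 HOLS libraries between -2.53 and -1.33.

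**Figure D2:**
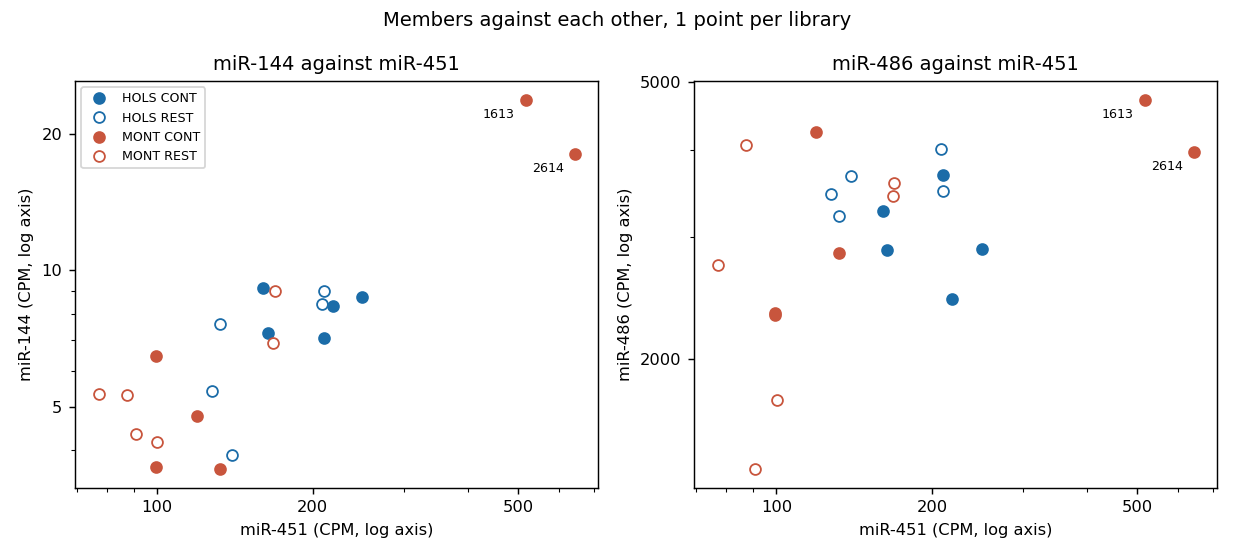
miR-144 (left) and miR-486 (right) against miR-451 in each of the 22 libraries, in CPM on log axes. Filled points are CONT and open points REST, blue for HOLS and red for MONT. The CONT libraries of cows 1613 and 2614 lie at the upper right of both panels, and the log2 ratio of the plotted pair has an SD of 0.38 on the left and 0.66, for miR-451 over miR-486, on the right.

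Whether feed restriction moved the 3 miRNAs was tested within each breed on the counts of all miRNAs past the filter on low counts, with edgeR's quasi-likelihood test and Benjamini-Hochberg adjustment. In HOLS, none of the 3 passed the threshold of 0.05, where 2.41% of the 374 miRNAs tested did so (9, each lower in REST). The log2 fold change of REST over CONT was 0.39 for miR-486 (SE 0.15, 95% interval 0.07 to 0.72, unadjusted p 0.0219, edgeR adjusted p 0.179). An unadjusted p under 0.05 was found for 23.3% of the miRNAs tested. The log2 fold change was -0.12 for miR-451 (SE 0.18, interval -0.50 to 0.26, edgeR adjusted p 0.732) and -0.09 for miR-144 (SE 0.21, interval -0.53 to 0.36, edgeR adjusted p 0.852). The median over all miRNAs tested was 0.02. Without TMM scaling, on library size alone, that median moved to -0.15 and the 3 log2 fold changes became 0.24, -0.30 and -0.24 in the same order, with their directions kept. No miRNA of the 3 had groups that did not overlap in CPM, which 7.22% of all those tested had.

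The call for miR-486 in HOLS depended on whether the 2 libraries of a cow were taken as a pair. With the cow as a replicate block in edgeR, miR-486 rose by 0.42 on the log2 scale (SE 0.13, interval 0.14 to 0.70, edgeR adjusted p 0.0476), in a fit in which 16.3% of all miRNAs passed. DESeq2 without the block gave an adjusted p of 0.103 and called 7.22% of all miRNAs, and over the 20 alternative fits in HOLS the adjusted p of miR-486 lay between 0.0128 and 0.425. The block call held with DESeq2 size factors (0.41, edgeR adjusted p 0.0300) and without cow 8200 (0.53, edgeR adjusted p 0.0128). It was lost on library size alone (0.25, edgeR adjusted p 0.120) and without cow 1155, 1165, 2182 or 9195 (0.29 to 0.44, edgeR adjusted p 0.114 to 0.170). Its 2 red cell companions had -0.14 and -0.13 in the block fit, with edgeR adjusted p of 0.493 for miR-451 and 0.651 for miR-144. Of the 10 other miRNAs abundant in red cells 1 passed in that fit, miR-25 at 0.32 (edgeR adjusted p 0.0280). miR-363 of the same list had -0.48 (edgeR adjusted p 0.0976). The block call of miR-25 held with DESeq2 size factors and, with 1 cow left out, without cow 8200 alone. On library size alone it was lost, and miR-363 passed, lower in REST. Markers of other cells also passed beside miR-486 in the block fit with TMM. miR-143 and miR-145, miRNAs of smooth muscle, were 0.46 and 0.26 higher in REST (edgeR adjusted p 0.0287 and 0.0491). Of the 7 leukocyte miRNAs 4 rose, miR-146b most (0.78, edgeR adjusted p 0.000657), and of the 2 endothelial ones miR-126-3p did (0.31, edgeR adjusted p 0.0476). Of the 6 epithelial miRNAs 3 passed with a fall, miR-200b by 0.55, miR-200c by 0.43 and miR-429 by 0.28 on the log2 scale. The other 3 did not pass, miR-200a at -0.14, miR-141 at 0.007 and miR-205 at 0.10. The 4 fibroblast miRNAs had 0.24 to 0.36 and did not pass (edgeR adjusted p 0.0510 to 0.164). Of these, miR-199a-3p passed in the block fits with DESeq2 size factors and without cow 8200. On library size alone with the block, 1 leukocyte miRNA (miR-146b), miR-143 and 4 epithelial miRNAs passed in these directions and miR-126-3p and miR-145 did not. All calls of that kind split into 6 higher and 62 lower, against 30 and 31 with TMM. With 1 cow left out of the block fit, miR-146b and miR-200b passed in each of the 5 fits. The leukocyte calls then numbered 1 to 4, the epithelial ones 1 to 3 and those of smooth muscle 0 or 1 (miR-143, without cow 8200), and miR-126-3p passed in 0 of the 5. The part of these cell types in the rise of miR-486 was not tested. Of the miRNAs of skeletal muscle, miR-1 and miR-133a did not pass (0.23 and -0.24, edgeR adjusted p 0.631 and 0.408), miR-133b was too low to test and miR-206 had no row. The 3 with a row summed to between 34.0 and 168 CPM over the 22 libraries.

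MONT cows gave larger fitted differences for miR-451 and miR-144 than HOLS cows, a smaller one for miR-486, and wider errors for the 3. The log2 fold change of REST over CONT was -1.13 for miR-451 (SE 0.51, 95% interval -2.21 to -0.04), -0.75 for miR-144 (SE 0.49, interval -1.80 to 0.31) and -0.19 for miR-486 (SE 0.32, interval -0.87 to 0.50). None passed, with edgeR adjusted p of 0.355, 0.448 and 0.783, and 0.0% of the 349 miRNAs tested passed. By edgeR 47 of these (13.5%), miR-451 among them (p 0.0434), had an unadjusted p under 0.05, and DESeq2 also called 0. With the cow as a replicate block miR-451 had -0.73, and its interval took in 0 (-1.98 to 0.51, edgeR adjusted p 0.433). miR-144 and miR-486 had -0.39 and -0.28 in that block fit (edgeR adjusted p 0.645 and 0.551). The values without the block rested on cows 1613 and 2614, and the paired changes of miR-451 and miR-144 were also lowest there. In log2(CPM + 1) miR-451 changed by -2.73 and -2.67 in these cows and by -0.45 to 0.75 in the other MONT cows. For miR-144 the changes were -1.97 and -1.88, against 0.08 to 1.11. The block fit was not run without these cows. In the fit with no block, the log2 fold change of miR-451 was -0.61 without cow 1613 and -0.66 without cow 2614. With both left out, a choice made after their values were seen and therefore given with no test, it was 0.28 for miR-451, 0.48 for miR-144 and 0.18 for miR-486. Cow 9615 acted the other way, and without it miR-451 had -1.54 (edgeR adjusted p 0.0632, over the alternatives 0.0632 to 0.869) and 46 miRNAs passed, none of them among the 3. Groups without overlap in CPM were found for 0.573% of the miRNAs tested and for none of the 3.

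Cow by cow, the mean change of miR-451 in log2(CPM + 1) was -0.31 ± 0.43 in HOLS (SD, n = 5, lower in 4 cows) and -0.81 ± 1.52 in MONT (SD, n = 6, lower in 4 cows). For miR-144 it was -0.25 ± 0.38 (lower in 3 of 5) and -0.39 ± 1.25 (lower in 2 of 6). For miR-486 it was 0.25 ± 0.26 (higher in 3 of 5) and -0.31 ± 0.70 (higher in 2 of 6). An exact two-sided sign-flip permutation test gave p of 0.25 for each of the 3 miRNAs in HOLS, and of 0.344, 0.5 and 0.344 in MONT, with adjusted values over the 9 tests of at least 0.442. With 5 cows this test cannot go below 0.0625, and with 6 not below 0.0312. Over all 11 cows the mean changes were -0.58 ± 1.138 for miR-451 (lower in 8), -0.33 ± 0.92 for miR-144 (lower in 5) and -0.06 ± 0.60 for miR-486 (lower in 6), and none passed (two-sided exact permutation p 0.126, 0.280 and 0.753). The direction of the last value turned with the scaling, to 0.05 on normalised counts. Counts of cows moved with the scaling as well. On TMM library sizes miR-451 was lower in 3 HOLS cows, miR-144 lower in 3 MONT cows and miR-486 higher in 4 HOLS cows.

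The effect of restriction was not shown to differ between the breeds. The interaction of breed and period, HOLS minus MONT, was 0.92 for miR-451 (interval -0.31 to 2.15), 0.59 for miR-144 (interval -0.63 to 1.81) and 0.51 for miR-486 (interval -0.30 to 1.33), each with an edgeR adjusted p of 0.991. Of the 388 miRNAs tested 0.0% passed by edgeR or DESeq2, and 3 (0.773%) had an unadjusted p under 0.05, none of them of the red cell group. Without cows 1613 and 2614 and with no block the values of miR-451 and miR-144 were -0.33 and -0.51, and that of miR-486 was 0.27. With all cows and the cow as a block, the interaction was 0.55 for miR-451, 0.23 for miR-144 and 0.64 for miR-486. The intervals of that fit took in 0 for each of the 3 (edgeR adjusted p 0.985, 0.994 and 0.985). With both breeds in one fit the log2 fold changes of REST over CONT were -0.66 for miR-451 (SE 0.30, edgeR adjusted p 0.143), -0.44 for miR-144 (edgeR adjusted p 0.285) and 0.07 for miR-486 (edgeR adjusted p 0.840). In that fit 9.89% of 374 miRNAs passed. With the cow as a block the 3 log2 fold changes were -0.45, -0.27 and 0.04 (edgeR adjusted p 0.249, 0.455 and 0.868). Without the 2 cows and with no block they were 0.01, 0.12 and 0.26, and miR-486 had -0.04 on library size alone.

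**Figure D3:**
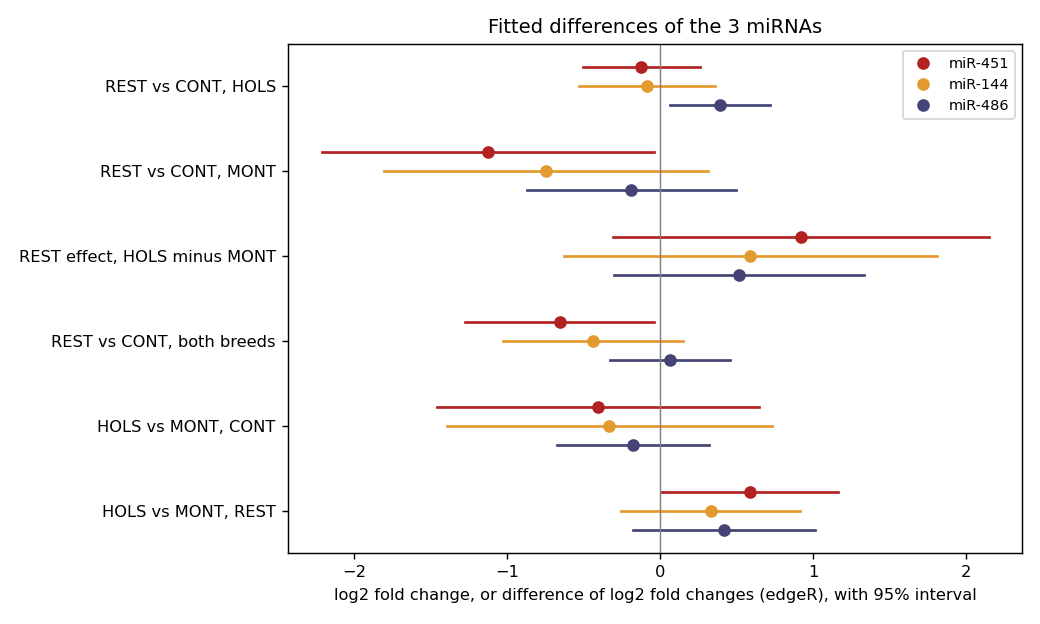
Fitted log2 differences of miR-451, miR-144 and miR-486 in 6 comparisons, from edgeR, with 95% intervals as lines. Positive values are higher in REST, or in HOLS, and the row of the breed difference in effect is HOLS minus MONT. For miR-451 and miR-144 the intervals are narrowest for REST against CONT in HOLS, and no point passed the threshold after adjustment.

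Levels were also set between the breeds within each period, where breed and library quality cannot be told apart. In CONT, HOLS against MONT gave -0.41 for miR-451 (interval -1.46 to 0.64, edgeR adjusted p 0.676), -0.33 for miR-144 (interval -1.40 to 0.73, edgeR adjusted p 0.721) and -0.18 for miR-486 (interval -0.68 to 0.32, edgeR adjusted p 0.690), where 0.556% of 360 miRNAs passed. Without cows 1613 and 2614 these were 0.80, 0.75 and 0.02, and limma-voom gave 0.02 for miR-451 and 0.10 for miR-144, so that no direction holds for CONT. In REST, miR-451 was 0.59 higher in HOLS (SE 0.27, interval 0.01 to 1.16), miR-144 0.33 (interval -0.26 to 0.92) and miR-486 0.42 (interval -0.18 to 1.01). None passed, with edgeR adjusted p of 0.144, 0.428 and 0.301, and 15.3% of the 378 miRNAs tested did. The value of miR-451 passed without cow 9615 (0.80, edgeR adjusted p 0.0263, over the alternatives 0.0263 to 0.297). Averaged over both periods of a cow, the difference in log2(CPM + 1) was 0.28 for miR-451, 0.12 for miR-144 and 0.15 for miR-486, with an adjusted p of 0.621 for each by an exact two-sided permutation test of the 11 cows. The ranges of the breeds overlapped for the 3 miRNAs in both periods, while 2.5% of miRNAs in CONT and 5.29% in REST had ranges apart.

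The changes of the 3 miRNAs were set against each other over the 11 cows, each cow giving both values from the same libraries. miR-451 and miR-144 changed alike, with r = 0.92 (permutation p 0.00054, adjusted over 9 relations 0.00486) and rho = 0.85 (permutation p 0.00164, adjusted 0.0148). Without cows 1613 and 2614, the farthest from the median of miR-451, r was 0.65 (n = 9, exact permutation p 0.0516). It kept its sign but did not pass without these 2 cows, on fewer cows and a narrower range of changes. Within MONT r was 0.94 (n = 6, exact permutation p 0.0292, adjusted 0.131), and no value was computed for the 5 HOLS cows alone. For miR-451 and miR-486 r was 0.79 (permutation p 0.00691, adjusted 0.0207) and rho 0.61 (permutation p 0.0518, adjusted 0.155), with r = 0.84 within MONT (n = 6, exact permutation p 0.0444, adjusted 0.133). It went to 0.32 without the 2 cows (exact permutation p 0.403). For miR-144 and miR-486 r was 0.67 (permutation p 0.0246, adjusted 0.0554) and rho 0.37 (permutation p 0.261, adjusted 0.588), within MONT 0.76 (n = 6, exact permutation p 0.108, adjusted 0.244), and without the 2 cows r was 0.04.

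The mean level of a cow over its 2 libraries gave r = 0.79 between miR-451 and miR-144 (permutation p 0.00393, adjusted 0.0177) and rho = 0.80 (permutation p 0.00451, adjusted 0.0203). Within MONT r was 0.88 (n = 6, exact permutation p 0.0236, adjusted 0.131). Without cows 1652 and 5663, the farthest from the median, r over the other cows was 0.56 (n = 9, exact permutation p 0.115). It kept its sign but did not pass, on fewer cows and a narrower range of levels. For miR-486 no relation passed, with r = 0.23 to miR-451 and 0.31 to miR-144 (rho 0.05 and -0.04, adjusted permutation p of r 0.582 for both and of rho 0.945). The CONT and REST levels of a cow showed no relation past the threshold for any of the 3. Between the 2 biopsies of a cow r was -0.29 for miR-451, -0.22 for miR-144 and 0.07 for miR-486 (rho -0.03, -0.10 and 0.13, adjusted permutation p of r 0.582, 0.582 and 0.848, of rho 0.945), and within MONT -0.46, -0.41 and 0.19 (n = 6, adjusted exact permutation p 0.573, 0.607 and 0.731). Leaving out the 2 farthest cows gave 0.44, 0.20 and -0.01.

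To find the miRNAs most like each member, levels in log2(CPM + 1) were compared over the 22 libraries after the mean of each breed and period was taken out, among 387 other miRNAs each. These r are descriptions over libraries that share depth and tissue. Of the 387, miR-144 was the most like miR-451 (r = 0.88), followed by miR-193a (0.75), miR-345-5p (0.72), miR-193a-3p (0.70) and miR-30f (0.64). miR-486 came in place 39 for miR-451, with r = 0.48. For miR-144 the order was miR-451, miR-193a (0.60), miR-885 (0.57), miR-378b and miR-11981 (both 0.52), and miR-486 stood in place 9 (0.50). With the libraries of cows 1613 and 2614 left out, miR-451 and miR-144 had r = 0.54, and miR-144 then stood in place 23 for miR-451 while miR-451 stood in place 2 for miR-144. The other 4 neighbours of miR-451 then had r of 0.51 to 0.55, in places 16 to 27. Those of miR-144 had 0.37 for miR-885, 0.32 for miR-193a, 0.18 for miR-11981 and 0.12 for miR-378b, and miR-486 had 0.33 to miR-451 and 0.25 to miR-144.

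miR-486 kept other company. Its nearest miRNAs were miR-30a-5p (0.77), an abundant miRNA of the gland at 86877 CPM, then miR-193a-5p (0.74), miR-200c of the epithelial miR-200 family (0.73), miR-11981 (0.72) and miR-6522 (0.70), and miR-144 and miR-451 came in places 37 and 39. Against 108 of the 387 its r was under -0.5 and against 37 above 0.5. Without the 2 cows miR-30a-5p and miR-193a-5p remained its nearest, with r of 0.70 and 0.73.

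The miRNAs of other blood cells and of the tissue were followed beside the 3, from lists of markers. All 7 leukocyte miRNAs were present in every library, and their r to miR-451 ranged from -0.63 for miR-146b, which restrains inflammatory signalling, to -0.11 for miR-223, the miRNA of neutrophils. To miR-486 the leukocyte miRNAs had r between -0.75 and -0.46. Among 387 other miRNAs, 26 had r under -0.5 to miR-451 and 37 had r above 0.5. The r of the leukocyte miRNAs include the libraries of cows 1613 and 2614 and were not computed without them. The levels in these libraries, given next, are therefore part of the same r. The 2 MONT CONT libraries high in miR-451 were not high in leukocyte miRNAs. The summed level there was 2745 CPM in cow 1613, the lowest of the 6, and 3016 CPM in cow 2614, the fourth, in a range up to 7600 CPM. Of other miRNAs abundant in red cells (the miR-16 and miR-15 family, miR-92a, miR-25, miR-93, miR-185, miR-363, miR-107 and miR-425-5p), 10 of 10 were present, and their r to miR-451 lay between -0.34 and 0.35. Their sum was 8650 CPM in cow 1613 and 10560 CPM in cow 2614, the fifth and the second of MONT CONT.

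Of the tissue lists, the 4 fibroblast miRNAs (the miR-199 group and miR-214) had r between -0.64 and -0.49 to miR-451, between -0.46 and -0.37 to miR-144 and between -0.76 and -0.67 to miR-486. Their sum in MONT CONT was lowest in cow 1613 (938 CPM) and next in cow 2614 (981 CPM), in a range up to 2431 CPM. The epithelial miRNAs had r between -0.09 and 0.44 to miR-451, while 5 of the 6 had 0.32 to 0.73 to miR-486 and miR-205, of basal cells, had -0.37. The 2 miRNAs of endothelium, the cells that line vessels, had 0.15 and 0.56 to miR-451, the latter for miR-126-3p. Skeletal muscle miRNAs had r between -0.47 and -0.19 to miR-486, and smooth muscle miRNAs -0.43 and -0.30. The r of these lists to miR-451 and miR-144 also include the libraries of cows 1613 and 2614 and were not computed without them. The part of these cells in the levels of the 3 miRNAs was not tested.

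**Figure D4:**
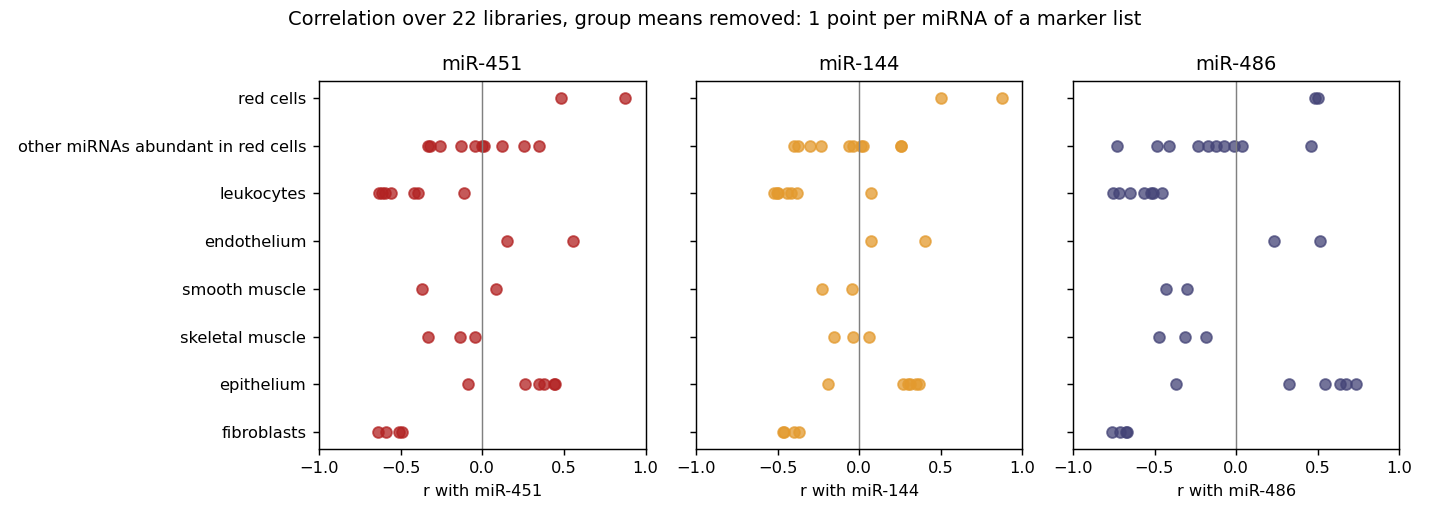
Pearson's r of each listed marker miRNA with miR-451, miR-144 and miR-486 over the 22 libraries, in log2(CPM + 1) with the mean of each breed and period taken out. Each point is 1 miRNA of a list. All leukocyte and fibroblast points lie below 0 for miR-451 and miR-486, and 5 of the 6 epithelial points lie between 0.32 and 0.73 for miR-486, with miR-205 at -0.37.

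Marker miRNAs passed in some of the comparisons in which the 3 did not. In the fits within a breed and without a block, 0 of 7 leukocyte, 0 of 4 fibroblast and 0 of 10 other red cell miRNAs passed between REST and CONT by edgeR, with 2, 1 and 1 at an unadjusted p under 0.05 in HOLS and 1, 3 and 1 in MONT. Over all miRNAs tested, 2.41% passed in HOLS and 0.0% in MONT, and 23.3% and 13.5% had an unadjusted p under 0.05. Between the breeds bta-miR-16a, an abundant miRNA of red cells and of many tissues, was higher in HOLS in both periods, by 0.77 in CONT (SE 0.14, edgeR adjusted p 0.0415) and by 1.04 in REST (SE 0.17, edgeR adjusted p 0.00764). With 1 cow left out, the call in REST held in 11 of 11 fits, and that in CONT was lost in 7 of 11 (without cow 1155, 1165, 1640, 1652, 8200, 9195 or 9615). In REST, 2 epithelial miRNAs (miR-141 and miR-200c) and miR-126-3p were higher in HOLS, and miR-205, miR-146b and 3 of the 4 fibroblast miRNAs were lower, in a comparison in which 15.3% of all miRNAs passed. The calls of the 3 fibroblast miRNAs held in 11 of 11 fits with 1 cow left out and that of miR-205 in 10, whereas those of miR-126-3p, miR-200c and miR-146b were lost in 7 and that of miR-141 in 8. The REST libraries of the breeds therefore differed in tissue markers where miR-451 had its value of 0.59, and their part in it was not tested.

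Other miRNAs past the threshold between REST and CONT were also counted with a covariate beside the period. This covariate was the mean log2(CPM + 1) of the 3 miRNAs, of which miR-486 kept other company than miR-451 and miR-144. In HOLS 9 of 371 other miRNAs passed without the covariate and 9 with it, 7 of them shared. With miR-451 alone as the covariate 7 passed, 6 of them shared with the 9. The mean of miR-451 and miR-144 as the covariate also gave 7, with 6 shared. With the cow as a block the number was 60 without the covariate and 23 with it, of which 22 were shared, in a fit with 1 degree of freedom fewer. At an unadjusted p under 0.05 the HOLS block fits had 131 without the covariate and 124 with it. The median absolute shift of the log2 fold changes between them was 0.041. miR-486, a part of the covariate, itself rose in the block fit without it. In MONT 0 of 346 passed by edgeR with or without the covariate, and the number at an unadjusted p under 0.05 was 46 without it and 16 with it. That number was also 16 with the mean of miR-451 and miR-144, and 13 with miR-451 alone.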

How the data were processed

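Small RNA of 22 mammary biopsies was sequenced. The authors trimmed and size-filtered the reads, annotated them with ncPRO-seq and used miRDeep2 with the btau5.0.1 genome and miRBase. The deposited counts are whole-number read counts per mature miRNA without normalization. The submitters' processing notes also name bcl2fastq 2.17.1.14 and DESeq2 1.18.1. How reads shared by near-identical miRNAs were counted is not given in the sources used here. The authors' normalised counts, means, fold changes and p-values, also in the tables, were not used.

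The counts of both breeds were joined by miRNA name. CPM was the count per 1000000 miRNA counts of the library. edgeR 4.0.16 (R 4.3.3) was run with TMM, filterByExpr (minimum count 10), the quasi-likelihood F test and Benjamini-Hochberg adjustment over all miRNAs that passed, at a threshold of 0.05. The members passed the filter in every comparison. Fits were made within each breed, over both with and without the interaction, and between the breeds within each period. Changes and levels per cow used log2(CPM + 1) and exact permutation tests, and correlations 100000 permutations (scipy 1.17.1) over the cows or exact ones with fewer than 10. Intervals of levels were Wilson intervals. Fold change intervals came from the F statistic. Dixon's ratio was checked in 12 groups (each member in each breed and period) and passed its critical value in 0 of them. The ratio looks for a single value set apart. It could not flag the MONT CONT libraries of cows 1613 and 2614, which lay high together in miR-451 and miR-144, and it says nothing on them.

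By the titles of the samples, CONT and REST libraries with an equal number belong to one animal, so pairing holds and the cow served as a replicate block in an alternative. For miRNAs the study's methods name DESeq2 and state no design, and the main fits have no block. Deviations from the group means over 388 miRNAs correlated within a cow with r of 0.295 to 0.530 in HOLS and of 0.0765 to 0.740 in 5 of the MONT cows. For cow 9615 it was -0.257. Nothing says that samples were handled in batches. Scripts were tested on simulated data. Alternatives were DESeq2 1.42.0, limma-voom (limma 3.58.1), other scalings and filters, the block, and each cow left out. After the data were seen, cows 1613 and 2614 were left out together, the block was combined with other scalings and with each cow left out in HOLS, and a covariate from miR-451 and miR-144 was added.

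The members and the marker lists were chosen with earlier results of these data known. miRNAs named are the members, the 5 with the highest r to each over 22 libraries, and the marker lists (red cells, other miRNAs abundant in red cells, leukocytes, endothelium, smooth and skeletal muscle, epithelium, fibroblasts, liver and miR-23a).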

Additional observations from a re-analysis of the deposited data

How the results depend on the processing

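Of 605 alternative values, 535 kept their direction and side of the threshold, or lay within 1.5 times the count. None of the 3 passed in a main fit, so for their fold changes this asks for little beyond the direction. Values given with no test were judged by direction alone. Depth limits miR-144 most, at 29 counts in its shallowest library. In HOLS the replicate block brought miR-486 past the threshold (0.42, 0.41 with DESeq2 size factors), but with 1 cow left out, at 0.29 to 0.53, it passed without cow 8200 alone, and the block changed no other call of the 3. Other alternatives that turned or moved values follow, and where nothing is added the cause was not tested.

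Without cows 1613 and 2614, the log2 fold changes of miR-451, miR-144 and miR-486 turned to 0.28, 0.48 and 0.18 in MONT and to 0.80, 0.75 and 0.023 between the breeds in CONT. Those of miR-451 and miR-144 turned to -0.33 and -0.51 for the interaction and to 0.014 and 0.12 over both breeds. For miR-486 over both breeds, library size only gave -0.039, and leaving out 1 cow gave -0.0055 to 0.18, below 0 without cow 1155 or 9615. Between the breeds in CONT, limma-voom gave 0.024 for miR-451 and 0.10 for miR-144, and leaving out 1 cow gave -0.52 to 0.21 for miR-144, above 0 without cow 1613. In REST that range was 0.45 to 0.80 for miR-451. The mean change of miR-486 over all cows was 0.054 on normalised counts, 0.014 on TMM library sizes and -0.12 to 0.054 with 1 cow left out. Without the 2 farthest cows r was 0.65 and 0.32 for the changes of miR-451 with miR-144 and with miR-486, 0.56 for the levels of miR-451 and miR-144, -0.088 and -0.64 for those of miR-486 with miR-451 and with miR-144, and 0.44, 0.20 and -0.014 between the biopsies of a cow.

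The 9 miRNAs past the threshold in HOLS became 20 on library size only, 5 without a filter, 27 with DESeq2, 17 with limma-voom, 61 with the block and 3 to 14 with 1 cow left out. MONT gave 0 to 46 with 1 cow left out, the 46 without cow 9615. Over both breeds 37 (9 higher and 28 lower in REST) became 13 without a filter, 59 with DESeq2, 56 with the block and 13 to 120 with 1 cow left out, and on library size only the split was 1 to 39. Between the breeds, 2 in CONT became 1 on library size only, 20 with DESeq2 and 0 to 6 with 1 cow left out, and 58 in REST (21 higher and 37 lower in HOLS) became 89 with DESeq2 and 38 to 77 with 1 cow left out, with a split of 13 to 41 on library size only. With the covariate and the block together, 23 other miRNAs passed in HOLS, against 9 with the covariate and no block.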
